A study of Mus musculus with 4 samples.

Results

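Chemokine ligands are the small secreted or membrane-tethered proteins of the CC, CXC, CX3C and XC classes, and their mRNAs were followed here in sorted cells of the mouse aorta. Members were the genes of the count table whose Ensembl identifier is annotated as protein-coding with a symbol made of Ccl or Cxcl, a number and at most 1 letter, together with Cx3cl1 and Xcl1. Of 39 protein-coding symbols that fit this rule, 25 had a row among the 32948 genes of the table and make up the set. Of these, 13 had enough counts to be tested, 11 reached 10 CPM (the count scaled to the library's total) in at least 1 library, a further 9 reached 10 counts in at least 1 library, and the remaining 5 (Ccl4, Ccl28, Cxcl3, Cxcl15 and Cxcl17) stayed under 10 counts in all 4 libraries. The other 14 symbols (Ccl1, Ccl5, Ccl12, Ccl17, Ccl20, Ccl21b, Ccl21c, Ccl22, Ccl26, Ccl27, Cxcl9, Cxcl13, Cxcl14 and Xcl1) were not analysed here.

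Chemokines bind heptahelical receptors on leukocytes and other cells and direct where those cells move, and many of them are held on heparan sulphate chains at the cell surface and in the matrix. Many of the genes are switched on within hours of an inflammatory stimulus through NF-κB and interferon signalling, whereas others, such as Cxcl12, are made steadily by stromal cells. In the vessel wall, smooth muscle cells, fibroblasts, endothelium and resident macrophages can all make them, and Ccl2 and its receptor CCR2 are best known there for bringing monocytes into the wall.

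The classes take their names from the cysteines near the start of the mature protein, which lie side by side in CC ligands, with a single residue between them in CXC ligands and with 3 residues between them in CX3C ligands. Coding stretches around these cysteines are shown for 7 members from the GENCODE M21 transcripts of the mouse build GRCm38, 5′ to 3′, with the cysteine codons in capitals. Other abundant members, such as Ccl2, Ccl7 and Cxcl16, are not shown. The stretches show which class each of the 7 members belongs to.
Ccl9: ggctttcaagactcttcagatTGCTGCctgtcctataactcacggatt
Ccl6: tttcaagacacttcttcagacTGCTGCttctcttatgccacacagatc
Cxcl1: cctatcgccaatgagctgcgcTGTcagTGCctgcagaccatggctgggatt
Cxcl2: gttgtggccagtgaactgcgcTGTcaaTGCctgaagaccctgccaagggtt
Cxcl10: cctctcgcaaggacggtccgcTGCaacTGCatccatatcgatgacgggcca
Cxcl12: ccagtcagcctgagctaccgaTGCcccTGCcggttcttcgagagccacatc
Cx3cl1: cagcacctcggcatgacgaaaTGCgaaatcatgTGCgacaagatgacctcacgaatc

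All libraries came from Wnt1-Cre;Rosa26-mTmG mice, whose age is not given in the labels. In this reporter strain a cell shows red membrane tdTomato until Cre recombinase acts in it or in an ancestor, after which it shows green membrane GFP; Wnt1-Cre acts in the embryonic neural crest, which supplies part of the smooth muscle of the ascending aorta and arch. The GFP group therefore holds cells with a history of Cre activity, and the tdTomato group holds the sorted cells without one, whatever their type. The ascending aorta and arch of 1 female sample and of 2 pooled male samples were digested to single cells, and each suspension was sorted by colour alone into GFP and tdTomato cells, which gave 1 library per sex and colour by the SMART-Seq method. The labels call all 4 libraries vascular smooth muscle cells, although no marker of that cell type was used in the sort. The GFP and tdTomato libraries of a suspension share their animals and are called the male pair and the female pair.

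Library totals were 10094326 estimated counts in male GFP, 13678806 in female GFP, 12837282 in male tdTomato and 13911281 in female tdTomato. Detection was uneven: of the genes whose mean reached 10 CPM, 16.2% had no count in male GFP and 6.89% in female GFP, against 1.91% in male tdTomato and 1.58% in female tdTomato. The male GFP library thus stood apart, and each result below is given pair by pair. Contractile smooth muscle markers were high in all 4 libraries, with 8 of 8 detected and summed levels of 16665 and 18517 CPM in male and female GFP, against 14032 and 14585 CPM in male and female tdTomato.

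The chemokine ligands took a smaller share of the GFP libraries than of the tdTomato libraries in both pairs. Their summed level was 98.5 CPM in male GFP (95% exact Poisson interval 92.2 to 105) and 127 CPM in female GFP (121 to 133), against 929.8 CPM in male tdTomato (914 to 946) and 412 CPM in female tdTomato (402 to 422). The intervals cover counting error only. Of the 25 members, 16 were at 0 counts in male GFP and 14 in female GFP, against 6 in male tdTomato and 5 in female tdTomato, and 10 members were at 0 in both GFP libraries. Across the whole table, 9517 and 12008 genes reached 10 counts in male and female GFP, against 15669 and 16227 in male and female tdTomato. The share of all genes at 0 counts was not computed, so the members' zeros are not set apart from this general difference. The sums rested on different genes in each library, as shares of counts that are not corrected for gene length. Cxcl16 made up 94.9% of the male GFP sum, whereas Cxcl12 (50.9%), Cxcl1 (25.4%) and Cx3cl1 (11.03%) made up most of the female GFP sum. Ccl7 (23.6%), Cxcl1 (21.8%), Ccl2 (20.6%) and Cxcl12 (14.1%) made up most of the male tdTomato sum, and Cxcl12 (28.9%), Cxcl1 (17.0%), Ccl7 (16.3%) and Ccl2 (12.4%) most of the female tdTomato sum. Per kilobase of exon the order was another: Cxcl1 (17.2 CPM per kb) stood above Cxcl12 (7.91) in female GFP, and Cxcl12 (14.6) below Ccl7 (83.7), Ccl2 (44.7) and Cxcl1 (37.3) in female tdTomato. In bulk libraries such as these, fewer cells of a type and less RNA per cell cannot be told apart.

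**Figure D1:**
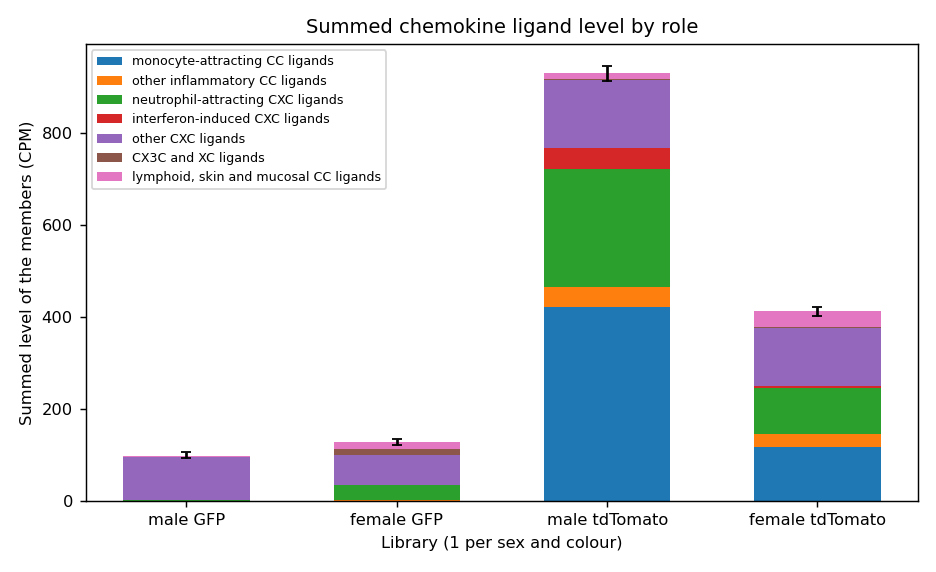
Summed level of the 25 chemokine ligands (CPM, linear axis from 0) in each of the 4 libraries, stacked by role; the bars carry 95% exact Poisson intervals on the whole sum, which cover counting error only. The GFP libraries reached 98.5 CPM (male) and 127 CPM (female), and the tdTomato libraries 929.8 CPM (male) and 412 CPM (female), with monocyte-attracting CC ligands at 0 counts in both GFP libraries.

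Markers of other cell types moved with colour as well. All 10 endothelial markers were lower in GFP by 2-fold or more in each pair, as were 22.9% of all tested genes, with summed levels of 12.8 and 15.8 CPM in male and female GFP, against 262 and 413 CPM in male and female tdTomato; Kdr and Egfl7 were at 0 in both GFP libraries. Of 8 tested macrophage markers, 5 were lower in GFP by 2-fold or more in each pair, with sums of 0.745 and 57.0 CPM in male and female GFP, against 128 and 66.4 CPM in male and female tdTomato, and Cd68, Mrc1, Lyz2, C1qb and C1qc were at 0 in both GFP libraries. Leukocyte markers summed to 2.87 and 0.950 CPM in male and female GFP, against 74.3 and 10.2 CPM in male and female tdTomato, of which Ptprc was 65.4 and 0 CPM. Dendritic cell markers summed to 0.319 and 0.238 CPM in male and female GFP, against 48.7 and 21.3 CPM in male and female tdTomato. The tdTomato libraries thus held more endothelial, macrophage, leukocyte and dendritic cell marker RNA in both pairs. Fibroblast markers divided differently: 2 of 10 were lower in GFP by 2-fold or more in each pair, and the sums were 2880 and 4907 CPM in male and female GFP, against 6239.5 and 5279.5 CPM in male and female tdTomato. Pdgfra, a receptor that marks fibroblasts, had 0.426 and 0 CPM in male and female GFP, against 61.9 and 68.6 CPM in male and female tdTomato. Pericyte markers summed to 2146 and 546 CPM in male and female GFP, against 595 and 829 CPM in male and female tdTomato. Schwann cell markers ran the other way, with 109 and 127 CPM in male and female GFP, against 11.7 and 8.23 CPM in male and female tdTomato. The part of these markers' cell types in the chemokine levels was not tested.

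**Figure D2:**
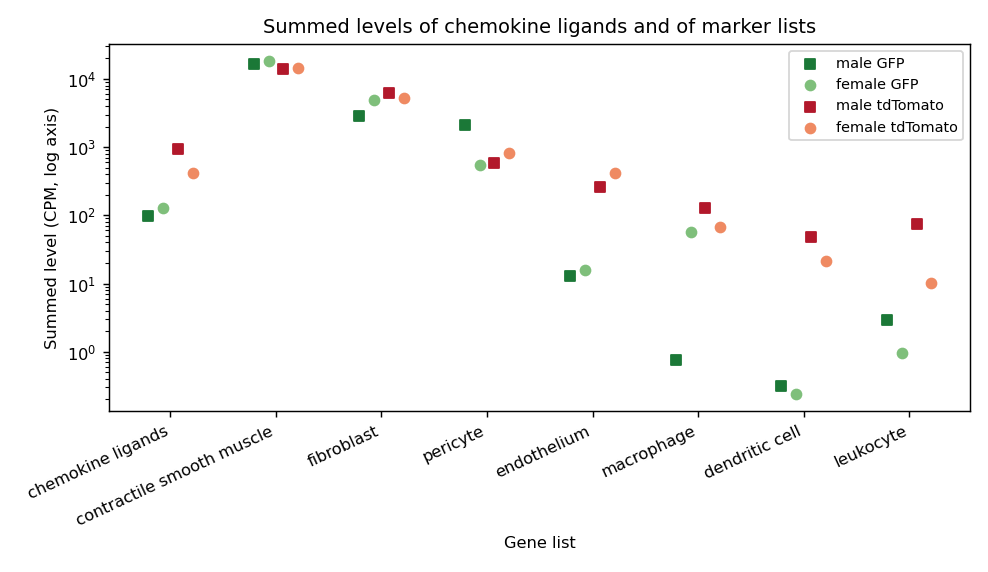
Summed levels (CPM, log axis) of the chemokine ligands and of 7 marker lists, 1 point per library. The chemokine ligands, at 98.5 and 127 CPM in male and female GFP and 929.8 and 412 CPM in male and female tdTomato, sit lower in GFP in both pairs, as do the endothelial, macrophage, dendritic cell and leukocyte lists, whereas contractile smooth muscle markers sit slightly higher in GFP.

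The 3 monocyte-attracting CC ligands were at 0 counts in both GFP libraries and summed to 422 CPM in male tdTomato and 118 CPM in female tdTomato. Ccl2 (monocyte chemoattractant protein 1, the main CCR2 ligand) had 0 counts in both GFP libraries, against 2668 counts (192 CPM) in male tdTomato and 761 counts (50.9 CPM) in female tdTomato. Ccl7, its neighbour on chromosome 11 and a further CCR2 ligand, likewise had 0 counts in both GFP libraries, against 3050 counts (219 CPM) in male tdTomato and 1002 counts (67.0 CPM) in female tdTomato. For both genes the colours did not overlap and every GFP value was 0. With 3 counts taken as the most that 0 allows, Ccl2 was at least 601-fold lower in GFP in the male pair and at least 214-fold lower in the female pair, and Ccl7 at least 687-fold and at least 282-fold lower. Neither passed edgeR's quasi-likelihood test (adjusted p = 0.577 for each), and both passed DESeq2's Wald test on the same design (adjusted p = 0.00198 for each). Of the genes that reached 10 CPM in male and in female tdTomato, 3.08% of 6791 had 0 counts in both GFP libraries; among the 6 members of that class these were 2, Ccl2 and Ccl7, and the others were Cxcl1, Cxcl2, Cxcl12 and Ccl27a. Ccl2 overlaps Gm17268 on the opposite strand, and the SMART-Seq kit does not mark strand, so reads shared by such genes cannot be told apart. Per kilobase of exon, the scale on which levels of different genes can be compared, Ccl7 was the highest member in both tdTomato libraries (274 CPM per kb in male, 83.7 in female), followed by Ccl2 (169 and 44.7) and Cxcl1 (108 and 37.3).

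Ccl8, a related ligand encoded by the same cluster, was seen in male tdTomato only, with 144 counts (10.4 CPM) there and 0 counts in male GFP, female GFP and female tdTomato. The male tdTomato level was at least 32.4-fold that of male GFP and at least 51.6-fold that of female tdTomato. A gene present in 1 library did not enter the tests. Such a gap between the tdTomato libraries was not rare at this level: of genes at 5 to 20 CPM in male tdTomato, 6.96% had 0 counts in female tdTomato.

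The 6 other inflammatory CC ligands, which act on monocytes, eosinophils and other leukocytes, summed to 0.426 and 0.950 CPM in male and female GFP, against 42.7 and 28.0 CPM in male and female tdTomato. Ccl9, a CCR1 ligand of rodents and the only one of them to reach 10 CPM, had 2 counts (0.213 CPM) in male GFP and 10 counts (0.792 CPM) in female GFP, against 439 counts (31.6 CPM) in male tdTomato and 139 counts (9.30 CPM) in female tdTomato. It was 148-fold lower in GFP in the male pair (95% exact binomial interval 40.8 to 1229, for counting error only) and 11.7-fold lower in the female pair (6.20 to 25.02), with an adjusted p of 0.870 by edgeR and 0.0927 by DESeq2. Ccl6, the next gene along chromosome 11 and a further CCR1 ligand of rodents, was at 0 in both GFP libraries and had similar levels in the tdTomato libraries, 125 counts (8.99 CPM) in male and 112 counts (7.49 CPM) in female. It was at least 28.2-fold lower in GFP in the male pair and at least 31.5-fold lower in the female pair (adjusted p = 0.577 by edgeR and 0.0255 by DESeq2). The eotaxin Ccl11, which attracts eosinophils through CCR3, had 144 counts (9.63 CPM) in female tdTomato and 0 in the other libraries, the reverse of Ccl8 between the sexes. Ccl24, a further eotaxin, ranged from 0 to 22 counts and Ccl3, a CCR1 ligand, from 0 to 24 counts, each with its highest value in a tdTomato library. Part of the Ccl9 transcript resembles sequence in many other genes, and reads there may be placed with uncertainty; Ccl6 overlaps E230016K23Rik on the opposite strand.

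**Figure D3:**
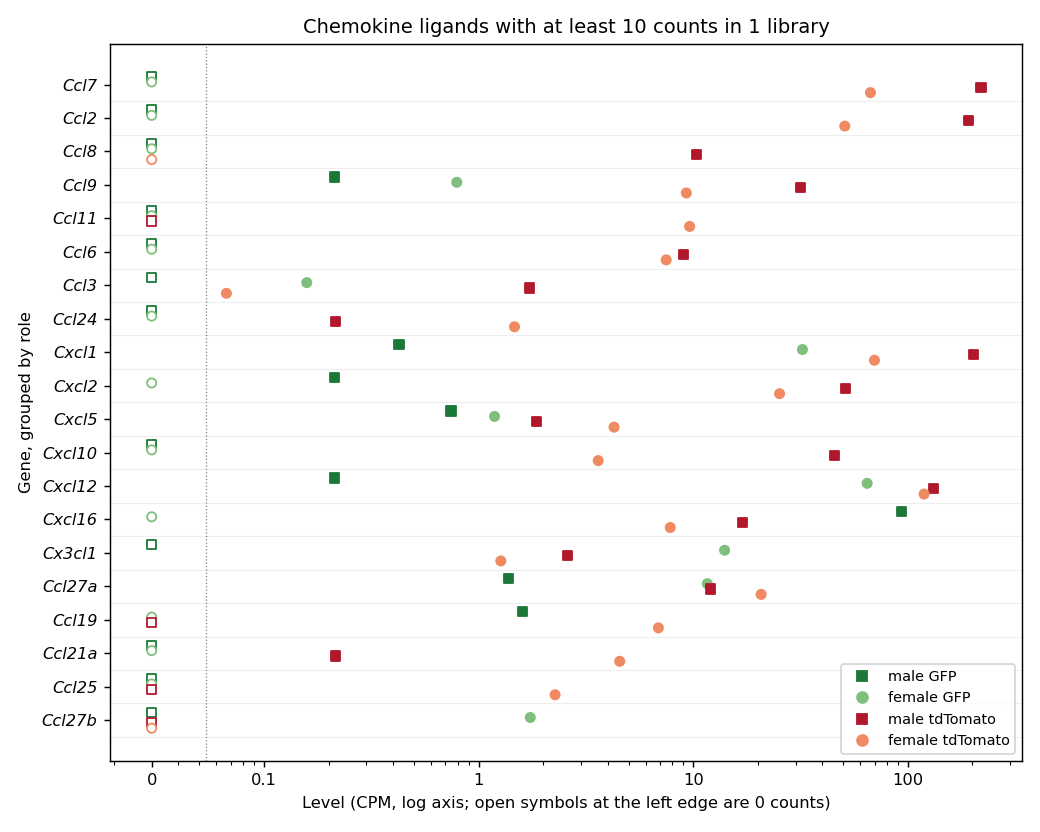
Level (CPM, log axis, with 0 counts drawn as open symbols at the left edge) of the 20 chemokine ligands with at least 10 counts in 1 library, 1 symbol per library, ordered by role. Ccl7 and Ccl2 lie at 0 in both GFP libraries and above 50 CPM in both tdTomato libraries, whereas Cxcl1 and Cxcl12 are 2.17-fold and 1.84-fold below female tdTomato in female GFP and close to 0 in male GFP, and Cxcl16 is highest in male GFP.

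The 5 neutrophil-attracting CXC ligands, most of which act through CXCR2, summed to 1.38 and 33.7 CPM in male and female GFP, against 257 and 99.6 CPM in male and female tdTomato. Cxcl1 (KC) had 4 counts (0.426 CPM) in male GFP and 408 counts (32.3 CPM) in female GFP, against 2822 counts (203 CPM) in male tdTomato and 1046 counts (69.95 CPM) in female tdTomato. Its level was lower in GFP in both pairs, but the sizes were far apart: 477-fold in the male pair (interval 186 to 1751) and 2.17-fold in the female pair (1.93 to 2.43), with an adjusted p of 1 by edgeR and 0.159 by DESeq2. Cxcl2 (MIP-2), the next member along chromosome 5, had 2 counts (0.213 CPM) in male GFP and 0 in female GFP, against 715 counts (51.4 CPM) in male tdTomato and 378 counts (25.3 CPM) in female tdTomato. It was near 0 in both GFP libraries, 242-fold lower in the male pair (66.6 to 1999) and at least 106-fold lower in the female pair (adjusted p = 0.577 by edgeR and 0.00673 by DESeq2). The female GFP library therefore held Cxcl1 at 408 counts and Cxcl2 at 0, while both genes were present in both tdTomato libraries. Cxcl5 ranged from 7 counts (0.745 CPM) in male GFP to 64 counts (4.28 CPM) in female tdTomato and was lower in GFP by 2.51-fold in the male pair and 3.60-fold in the female pair, with an adjusted p of 1 by edgeR. Cxcl2 shares a stretch of 116 bases at 98.3% identity with Cxcl3, which had at most 3 counts in any library.

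Promoter windows from RefSeq (build GRCm38.p6, 250 bases before to 50 after the start of the gene, 5′ to 3′ on the gene's strand) are shown for Cxcl1 and Cxcl2, neighbours that differed in female GFP, for the interferon-induced Cxcl10 and for Cxcl12, a ligand of stromal cells. Capitals mark matches to the κB consensus, the site bound by NF-κB, searched on both strands, where matches may overlap each other.
Cxcl1, chr5:90890995-90891294, plus strand: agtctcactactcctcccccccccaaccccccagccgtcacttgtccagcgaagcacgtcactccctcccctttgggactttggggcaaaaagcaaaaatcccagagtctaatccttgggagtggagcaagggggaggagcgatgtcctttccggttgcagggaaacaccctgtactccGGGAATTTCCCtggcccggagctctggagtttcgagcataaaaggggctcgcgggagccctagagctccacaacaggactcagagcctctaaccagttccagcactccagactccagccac
Cxcl2, chr5:90903649-90903948, plus strand: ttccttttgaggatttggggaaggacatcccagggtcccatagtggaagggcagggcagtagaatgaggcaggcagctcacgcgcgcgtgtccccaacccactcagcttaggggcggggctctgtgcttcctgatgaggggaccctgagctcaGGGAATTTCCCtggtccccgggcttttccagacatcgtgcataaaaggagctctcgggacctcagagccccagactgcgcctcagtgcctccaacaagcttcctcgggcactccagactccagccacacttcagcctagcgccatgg
Cxcl10, chr5:92348840-92349139, minus strand: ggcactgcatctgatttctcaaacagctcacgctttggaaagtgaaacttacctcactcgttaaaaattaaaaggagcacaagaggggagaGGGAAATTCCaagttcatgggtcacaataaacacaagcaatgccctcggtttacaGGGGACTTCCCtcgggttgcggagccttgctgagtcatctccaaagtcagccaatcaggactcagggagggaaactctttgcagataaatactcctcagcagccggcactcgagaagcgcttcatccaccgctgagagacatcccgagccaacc
Cxcl12, chr6:117168285-117168584, plus strand: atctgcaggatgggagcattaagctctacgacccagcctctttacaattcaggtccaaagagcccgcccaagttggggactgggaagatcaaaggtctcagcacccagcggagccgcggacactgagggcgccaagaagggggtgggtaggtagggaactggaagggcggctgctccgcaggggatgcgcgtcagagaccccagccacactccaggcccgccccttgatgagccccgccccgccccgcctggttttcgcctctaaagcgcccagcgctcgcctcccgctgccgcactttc

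Of the 25 members, 17 had a promoter window in the table, and 5 of these held a κB match (Ccl9, Cxcl1, Cxcl2, Cxcl3 and Cxcl10), beside 8.18% of 27025 promoters. Cxcl1, Cxcl2 and Cxcl3 carried the same run of letters, GGGAATTTCCC, which begins 71, 97 and 73 bases before the start and holds 2 overlapping matches. The AP-1 motif TGANTCA stood in 3 of the 17 windows (Ccl9, Ccl28 and Cxcl10) and in 7.93% of all. The interferon-stimulated element GAAANNGAAA stood in 2 (Ccl19 and Cxcl10) and in 3.49% of all, and the C/EBP motif TTGCNNAA in 3 (Ccl21a, Ccl27a and Ccl27b) and in 10.8% of all. No other motif overlapped a κB match in these windows. The members with a κB match thus include genes near 0 in both GFP libraries (Cxcl2, Cxcl10) and a gene at 32.3 CPM in female GFP (Cxcl1). These matches describe letters in a window and were not measured as bound sites.

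Cxcl10, the interferon-induced ligand of CXCR3 on T cells, was at 0 counts in both GFP libraries, against 635 counts (45.7 CPM) in male tdTomato and 54 counts (3.61 CPM) in female tdTomato. It was at least 143-fold lower in GFP in the male pair and at least 15.2-fold lower in the female pair (adjusted p = 0.577 by edgeR and 0.0108 by DESeq2). The tdTomato libraries themselves were 12.6-fold apart, with the male one higher (interval 9.57 to 17.0). Cxcl10 shares 133 exonic bases with Art3 on the opposite strand.

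Cxcl12 (stromal cell-derived factor 1), the ligand of CXCR4 and of the scavenging receptor ACKR3, had 2 counts (0.213 CPM) in male GFP and 817 counts (64.7 CPM) in female GFP, against 1826 counts (131 CPM) in male tdTomato and 1782 counts (119 CPM) in female tdTomato. The tdTomato libraries lay within 1.10-fold of each other, while the GFP libraries were 304-fold apart, with the male one lower (interval 83.9 to 2514). GFP was 617-fold lower in the male pair (171 to 5098) and 1.84-fold lower in the female pair (1.69 to 2.00), with an adjusted p of 1 by edgeR and 0.169 by DESeq2. Cxcl1 and Cxcl12 therefore shared a pattern in which female GFP was 2.17-fold or less below female tdTomato and male GFP was near 0. Such values were common in male GFP: of 3868 genes at 20 to 100 CPM in female GFP, 33% had 0 to 3 counts in male GFP. Fibroblast markers were mixed within GFP. Of the 4 most abundant, Dcn, a matrix proteoglycan, had 153 and 2134 CPM in male and female GFP, against 2236 and 1920 CPM in male and female tdTomato, and Gsn had 309.6 and 823 CPM in male and female GFP, against 1175 and 758 CPM in male and female tdTomato. Col1a2, a collagen chain, had 1311 and 646 CPM in male and female GFP, against 1413 and 1392 CPM in male and female tdTomato, and Mfap5 had 955 and 377 CPM in male and female GFP, against 378 and 298 CPM in male and female tdTomato. Dcn and Gsn were thus lower in male than in female GFP, and Col1a2 and Mfap5 were higher. The part of fibroblast RNA in the levels of Cxcl1 and Cxcl12 was not tested.

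Cxcl16 and Cx3cl1, the chemokines made as membrane-anchored proteins with a mucin-like stalk, went in opposite directions in the pairs. Cxcl16, the CXCR6 ligand, had 878 counts (93.5 CPM) in male GFP and 0 in female GFP, against 237 counts (17.0 CPM) in male tdTomato and 117 counts (7.82 CPM) in female tdTomato. It was 5.48-fold higher in GFP in the male pair (interval 4.74 to 6.36) and at least 32.9-fold lower in GFP in the female pair. Male GFP was the library in which fewest members were found, and Cxcl16 was its only member at 10 CPM or more. Cxcl16 shares 552 exonic bases with Zmynd15 on the opposite strand, a gene not analysed here, so reads of the pair cannot be told apart in that stretch. Cx3cl1 (fractalkine), the ligand of CX3CR1 on monocytes and macrophages, had 0 counts in male GFP and 177 counts (14.02 CPM) in female GFP, against 36 counts (2.59 CPM) in male tdTomato and 19 counts (1.27 CPM) in female tdTomato. It was at least 8.11-fold lower in GFP in the male pair and 11.03-fold higher in the female pair (6.86 to 18.8). Both genes had an adjusted p of 1 by edgeR, and by DESeq2 the adjusted p was 0.697 for Cxcl16 and 0.963 for Cx3cl1.

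The 6 CC ligands of lymphoid tissue, skin and mucosa summed to 2.98 and 13.5 CPM in male and female GFP, against 12.2 and 34.5 CPM in male and female tdTomato. Ccl27a, a skin T cell attractant that acts through CCR10, had 13 counts (1.38 CPM) in male GFP and 147 counts (11.6 CPM) in female GFP, against 167 counts (12.01 CPM) in male tdTomato and 310 counts (20.7 CPM) in female tdTomato. It was 8.68-fold lower in GFP in the male pair (interval 4.94 to 16.6) and 1.78-fold lower in the female pair (1.46 to 2.18), with an adjusted p of 1 by edgeR. Ccl27a is uncertain as a single gene, because it overlaps Il11ra1 and shares 425 bases at 99.3% identity with Ccl27b, which ranged from 0 to 22 counts with all of them in female GFP. Ccl19 and Ccl21a, the CCR7 ligands that guide T cells and dendritic cells into lymph nodes, also have near-identical copies in the genome. Ccl19 had 15 counts in male GFP and 0 in female GFP, against 0 in male tdTomato and 103 in female tdTomato. Ccl21a ranged from 0 to 68 counts and Ccl25, a CCR9 ligand, from 0 to 34 counts, each highest in female tdTomato.

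Across all 15055 tested genes, edgeR's quasi-likelihood test with the suspension as a block called 0% at an adjusted p under 0.05, and so none of the 13 tested members; the smallest adjusted p over all genes was 0.577. At an unadjusted p under 0.05, 8.33% of genes were lower in GFP and 0.292% were higher, and of the members 4 were lower (Ccl2, Ccl7, Ccl6 and Cxcl2) and 0 were higher. DESeq2 called 7.36% of the genes lower in GFP at an adjusted p under 0.05 and 5 of the 13 members (Ccl2, Ccl7, Ccl6, Cxcl2 and Cxcl10), with 0 members higher. limma-voom called 0 members and 0 genes. The 2 pairs also differ in sex, and 1 residual degree of freedom was left. With the suspension as a block, p-values rest on how far the ratio of GFP over tdTomato differed between these 2 suspensions. The estimate of that spread also draws on the other tested genes.

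By size alone, 8 of the 13 tested members were lower in GFP by 2-fold or more in each pair (Ccl2, Ccl7, Ccl6, Ccl9, Cxcl1, Cxcl2, Cxcl5 and Cxcl10), beside 22.9% of all tested genes, and 0 were at least 2-fold higher in both, beside 5.17%. Another 3 members (Cxcl16, Cx3cl1 and Ccl19) were at least 2-fold apart in opposite directions in the pairs, beside 19.2% of all tested genes. Of the genes whose mean reached 10 CPM, 6 of 9 members were lower in GFP by 2-fold or more in each pair, beside 14.3% of 8552 genes. The count was 10 when scaled by library totals, with Cxcl12 and Ccl27a added, and 7 with DESeq2's size factors, when Cxcl1 no longer reached 2-fold in the female pair. Taken alone, the male pair had 11 members at least 2-fold lower in GFP, beside 50% of genes, and the female pair had 10, beside 37.8%. The median log2 ratio of GFP over tdTomato, with a prior count of 2, was -6.42 for the tested members and -0.998 for all tested genes in the male pair, and -4.58 for the tested members and -0.27 for all tested genes in the female pair. With every gene that had a count and no other filter, the members' median was -1.25 in the male pair and -1.70 in the female pair. The filter asks for counts in 2 libraries, and a member that passed it through the tdTomato libraries alone had to be lower in GFP. The counts and medians over the 13 therefore describe the tested members and not the 25.

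**Figure D4:**
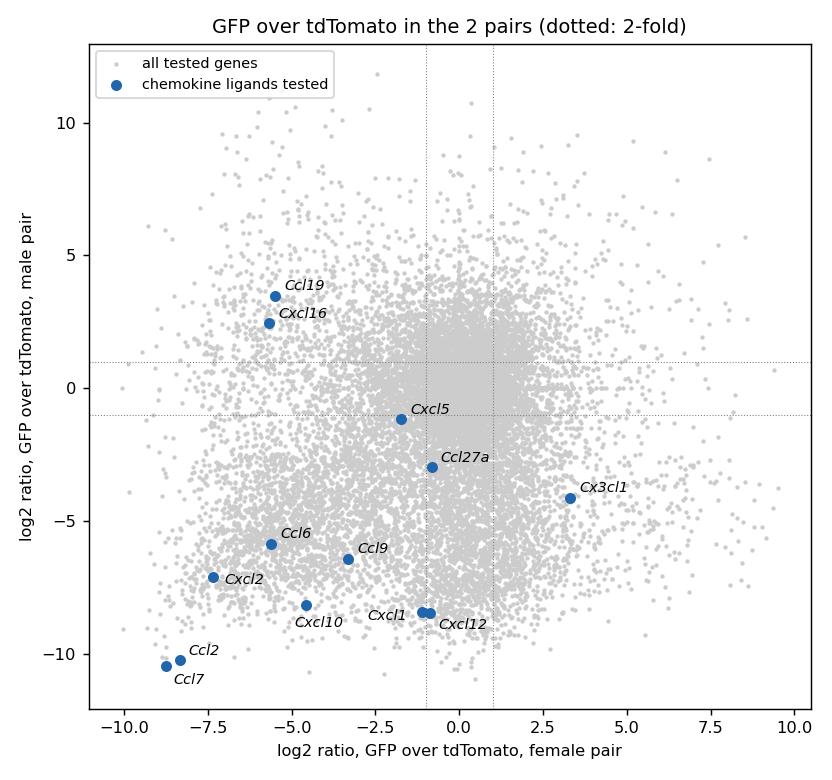
Log2 ratio of GFP over tdTomato in the male pair (vertical axis) against the female pair (horizontal axis) for all 15055 tested genes (grey) and the 13 tested chemokine ligands (blue); dotted lines mark 2-fold. The 8 members at least 2-fold lower in both pairs lie at the lower left, with Ccl7 and Ccl2 at its far end, while Ccl19 and Cxcl16 sit at the upper left and Cx3cl1 at the lower right.

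Between the sexes there was 1 library on each side within a colour, so differences are sizes without a test. In tdTomato cells, 7 of the 13 tested members were at least 2-fold higher in male than in female, beside 20.6% of all tested genes, and 2 were at least 2-fold lower, beside 21.6%. The median log2 ratio of male over female tdTomato was 1.02 for the tested members and -0.02 for all tested genes. The male tdTomato level was 3.77-fold the female level for Ccl2 (interval 3.48 to 4.09), 3.27-fold for Ccl7 (3.05 to 3.52), 2.90-fold for Cxcl1 (2.70 to 3.12), 2.03-fold for Cxcl2 (1.79 to 2.31) and 3.40-fold for Ccl9 (2.80 to 4.14). Cxcl10 (12.6-fold) and Cxcl16 (2.18-fold, 1.74 to 2.74) made up the 7, which were picked by the 2-fold rule. The 2 lower ones were Cxcl5 (2.29-fold, 1.43 to 3.76), a neutrophil-attracting ligand like Cxcl1 and Cxcl2, and Ccl19 (at least 31.9-fold). Cxcl12, at 1.10-fold (1.03 to 1.18), and Ccl6, at 1.20-fold (0.923 to 1.56), differed little. Macrophage markers summed to 128 CPM in male and 66.4 CPM in female tdTomato, with 6 of 10 higher and 4 lower in male. Leukocyte markers summed to 74.3 CPM in male and 10.2 CPM in female tdTomato, but Ptprc carried that difference: without it the sums were 8.92 CPM in male and 10.2 CPM in female, and 6 of the 8 markers were lower in male. Endothelial markers summed to 262 CPM in male and 413 CPM in female tdTomato. The part of those cell types in the difference was not tested.

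In GFP cells, 3 of the tested members were at least 2-fold higher in male than in female, beside 27.9% of all tested genes, and 5 were at least 2-fold lower, beside 40.4%. The median log2 ratio of male over female GFP was 0 for the tested members, several of which are at 0 in both libraries, and -0.18 for all tested genes. Cxcl16 was at least 393-fold higher in male GFP, whereas Cxcl12 (304-fold), Cxcl1 (75.9-fold, interval 29.4 to 280), Cx3cl1 (at least 43.9-fold) and Ccl27a (8.41-fold, 4.77 to 16.2) were lower in male GFP. Only 1 member in male GFP and 4 in female GFP reached 10 CPM, and none of these was common to the 2 libraries. Such gaps were common among all genes: of those at 20 to 100 CPM in female GFP, 33% had 0 to 3 counts in male GFP. Of those at 20 to 100 CPM in male GFP, 15.6% had 0 to 3 counts in female GFP.

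Genes that act with the ligands were examined as lists, whose counts stand beside 22.9% of all tested genes lower and 5.17% higher in GFP by 2-fold or more in each pair, and 7.36% lower by DESeq2. Of 18 typical chemokine receptors, 8 had a row and 3 were tested, with 0 lower and 0 higher in GFP by 2-fold or more in each pair. Cxcr2, the receptor of Cxcl1 and Cxcl2, was the only one at 10 CPM or more, at 22.5 and 9.66 CPM in male and female GFP, against 7.91 and 15.7 CPM in male and female tdTomato. Ccr2, the receptor of Ccl2 and Ccl7, had 2 counts in each GFP library, against 2 counts in male tdTomato and 1 count in female tdTomato and was scarcely present in either colour. A further list held 6 atypical and other receptors, some of which take up chemokines without the usual signalling. Of these 6, 4 had a row, and 2 of 3 tested were lower in GFP by 2-fold or more in each pair. Ackr3, which scavenges Cxcl12, was at 0 in male GFP and 29.5 CPM in female GFP, against 75.7 CPM in male tdTomato and 80.6 CPM in female tdTomato (DESeq2 adjusted p = 0.0883). Like Cxcl12, it was lower in the male than in the female GFP library, as were 40.4% of all tested genes by 2-fold or more. Pitpnm3 had 0 and 14.3 CPM in male and female GFP, against 22.4 and 7.96 CPM in male and female tdTomato. Ackr2 was present in male tdTomato alone, at 26.1 CPM, and Cxcr4 and Ackr1 were not analysed here.

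Regulators of these genes were read the same way. Of 11 tested NF-κB subunits and inhibitors, 2 were lower in GFP by 2-fold or more in each pair and 0 passed edgeR or DESeq2. Nfkbia, the inhibitor IκBα and itself a target of NF-κB, had 63.98 and 423 CPM in male and female GFP, against 713 and 312 CPM in male and female tdTomato. Nfkbiz, a nuclear IκB protein, had 1004 and 206 CPM in male and female GFP, against 261 and 339.7 CPM in male and female tdTomato, so each was higher in GFP in 1 pair and lower in the other. Nfkb1 had 17.6 and 23.8 CPM in male and female GFP, against 216 and 28.8 CPM in male and female tdTomato. Rela had 109 and 56.5 CPM in male and female GFP, against 66.9 and 32.9 CPM in male and female tdTomato. It was thus higher in GFP in both pairs, and 0 tested genes of the list were higher by 2-fold or more in each pair. Of 8 interferon signalling factors, 1 was lower in GFP by 2-fold or more in each pair and 0 passed a test. Jak1, a kinase of the interferon receptors, had 0.958 and 249 CPM in male and female GFP, against 111 and 113 CPM in male and female tdTomato, and Irf1, a factor induced by interferon, had 19.9 and 82.6 CPM in male and female GFP, against 162 and 108 CPM in male and female tdTomato.

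Of 14 inducing cytokines and their receptors with a row, 11 were tested, 3 were lower in GFP by 2-fold or more in each pair, beside 22.9% of all tested genes, and 2 passed DESeq2, beside 7.36%. The 2 were the tumour necrosis factor receptors Tnfrsf1a (0.532 and 3.09 CPM in male and female GFP, against 86.0 and 59.3 CPM in male and female tdTomato) and Tnfrsf1b (0 in both GFP libraries, against 10.2 and 9.43 CPM in male and female tdTomato), and both were named after their values were seen. Their adjusted p was 0.0419 and 0.0193 by DESeq2. Il6 is a cytokine that stromal cells secrete with Ccl2 and Cxcl1 under inflammatory stimuli. It had 243 and 22.3 CPM in male and female GFP, against 317 and 141 CPM in male and female tdTomato. Its relation to the levels of Ccl2 and Cxcl1 was not tested. Il6st, the shared signalling chain of the Il6 family, had 134 and 22.7 CPM in male and female GFP, against 218 and 112 CPM in male and female tdTomato. Osmr, the oncostatin M receptor, had 191 and 0 CPM in male and female GFP, against 102 and 148 CPM in male and female tdTomato. Il1r1 had 87.7 and 77.8 CPM in male and female GFP, against 71.1 and 37.0 CPM in male and female tdTomato. It was thus higher in GFP in both pairs, and 0 tested genes of the list were higher by 2-fold or more in each pair. Il1b was at 0 in both GFP libraries, against 0.144 and 4.75 CPM in male and female tdTomato, and Tnf and Ifng were not analysed here.

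The remaining lists held genes that bind, degrade or cut the ligands or their mRNAs. Of 8 tested heparan sulphate carriers, which hold chemokines at the cell surface, 1 was lower in GFP by 2-fold or more in each pair, and Hspg2 (perlecan) had 241 and 56.3 CPM in male and female GFP, against 277 and 170.1 CPM in male and female tdTomato. Of 5 mRNA decay factors, 1 was lower and 0 were higher in GFP by 2-fold or more in each pair. Zfp36, which shortens the life of many cytokine mRNAs, had 254 and 539 CPM in male and female GFP, against 817 and 594 CPM in male and female tdTomato. Zfp36l2 was higher in GFP in both pairs. It had 731 and 601 CPM in male and female GFP, against 344 and 507 CPM in male and female tdTomato. Of 6 tested proteases that cut chemokines, 3 were lower and 1 was higher in GFP by 2-fold or more in each pair, beside 22.9% and 5.17% of all tested genes. The 1 higher was Adam17, with 46.2 and 93.1 CPM in male and female GFP, against 9.42 and 45.5 CPM in male and female tdTomato. Mmp3 (stromelysin 1) had 0 and 0.238 CPM in male and female GFP, against 136 and 168 CPM in male and female tdTomato (adjusted p = 0.577 by edgeR and 0.00198 by DESeq2). Pf4, a CXC ligand of platelets and macrophages whose name falls outside the rule, was at 0 in both GFP libraries, against 8.78 and 7.82 CPM in male and female tdTomato (adjusted p = 0.0252 by DESeq2). No gene of these lists passed edgeR's test.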

How the data were processed

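Messenger RNA of 4 libraries was counted per gene. The authors deposited expected counts, that is, estimated numbers of reads per gene that need not be whole (59.4% to 69.1% were whole, tolerance 1e-06). The authors used HISAT2, StringTie, fastp and the build GRCm39, per the submitters' processing notes, which give no versions; the counting program and annotation are not given in the sources used here. Symbols and exon lengths came from GENCODE M21 (GRCm38), matched by identifier for 76.5% of genes. Counts were rounded to whole numbers and scaled by TMM. Levels are CPM of the scaled library total, and log2 ratios carry a prior count of 2. Folds carry no prior count, with exact 95% binomial intervals; against 0 counts they are bounded by 3 counts in that library. Reads were PCR copies without molecular identifiers, so intervals and bounds hold counting error and no other.

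Genes entered tests at filterByExpr's minimum of 10 counts. GFP and tdTomato libraries of a suspension come from the same animals, per the series' design text, so the suspension was the block of the main test: edgeR 4.0.16 in R 4.3.3, quasi-likelihood, Benjamini-Hochberg adjustment over all 15055 genes, tested on simulated data. Alternatives were limma-voom (limma 3.58.1) and DESeq2 1.42.0. Other scalings, filters, prior counts, folds, no block and each library left out were also tried. Library totals or DESeq2's size factors move the median ratio of GFP over tdTomato of all genes by -0.21 to -0.20 or by 0.15 to 0.17 (log2); no member changed direction in either pair.

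Members at 10 CPM or more in a library were named with each value, those with 10 counts in a library by range (Ccl6 and Ccl19, and single values of others, in more detail), and the rest by count; of other lists, up to 4 genes at 10 CPM or more in a library, the most abundant first, and Il1b, Il6, Ackr3, Ccr2 and Cxcr2 at any level. Markers at 0 in both GFP libraries, Pdgfra, Pf4, Tnfrsf1a and Tnfrsf1b were named outside this rule after their values were seen. Members and lists were chosen with earlier results of these data known. Promoters were matched by symbol; 8 members without an entry, and proteins, are not shown. A gene withheld from this text is not reported here, although list counts include it.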

Additional observations from a re-analysis of the deposited data

Results flagged for a closer look

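For 3 members, GFP was at least 2-fold above tdTomato in 1 pair and at least 2-fold below it in the other. The difference between the pairs was not tested, since each pair holds 1 library per colour. The log2 ratio of GFP over tdTomato in the female pair minus that in the male pair was 7.44 for Cx3cl1, -8.97 for Ccl19 and -8.11 for Cxcl16. Cx3cl1 had 0 and 177 counts in male and female GFP, against 36 and 19 counts in male and female tdTomato. Ccl19 had 15 and 0 counts in male and female GFP, against 0 and 103 counts in male and female tdTomato, and it has near-identical copies. Cxcl16 had 878 and 0 counts in male and female GFP, against 237 and 117 counts in male and female tdTomato, and it shares exonic bases with a gene on the opposite strand. Opposite differences of at least 2-fold were found in 19.2% of all tested genes.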

How the results depend on the processing

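With 2 pairs, no edgeR or limma-voom setting called a member. DESeq2's Wald test called 1108 genes lower and 49 higher, and 5 members lower, where edgeR with the suspension as replicate block called 0; the cause was not tested. Without the replicate block, the fitted log2 ratio of GFP over tdTomato was 1.91 for Cxcl16 and 1.86 for Cx3cl1, against -2.43 and -0.84 with it, and no call changed. Leaving out 1 library at a time, without the block, gave -10.42 to 2.98 for Cxcl16, with 1.44 without female tdTomato, and -7.61 to 2.87 for Cx3cl1, with 1.45 without female tdTomato. The remaining pair then held 13 to 15 members at least 2-fold lower and 2 higher, where both pairs gave 8 and 0; that count asks for 1 pair, and its filter for 1 library. The members' median was -5.88 to -4.12 in the male pair and -4.21 to -3.76 in the female pair, and the summed levels kept their order. Without a filter beyond 1 count the medians were -1.25 in the male pair and -1.70 in the female pair, and 9 members in GFP and 6 in tdTomato were at least 2-fold lower in male than in female, against 5 and 2. The share of all genes was computed with the main filter only, at 40.4% in GFP and 21.6% in tdTomato. With only genes whose mean reached 10 CPM, the male pair's median was -8.27, and 0 members were at least 2-fold lower in male tdTomato. A prior count of 0.5 gave a female pair median of -6.54. At 4-fold, 1 member was higher and 1 lower in male tdTomato, and the share of all genes was not computed. Library totals, DESeq2's size factors and a prior count of 5 gave 10, 7 and 7 members at least 2-fold lower in both pairs. The main setting gave 8, beside 22.9% of all tested genes, and that share was not recomputed. The other values recomputed under these settings kept their direction, and no gene or member was called under either scaling. Depth limits members at 0: 3 counts stand for 0.319 and 0.238 CPM in male and female GFP, against 0.216 and 0.201 CPM in male and female tdTomato.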
